A study of Mus musculus with 20 samples.

Results

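The comparison was made between skeletal muscle and liver of WT mice, with 5 arrays of each tissue, 10 of the 20 arrays of the series. The study worked with a mouse line in which 1 copy of Adck2, a mitochondrial kinase-like gene, was inactivated (Adck2+/-), and it measured RNA of liver and gastrocnemius muscle of male Adck2+/- and WT mice by expression profiling on bead arrays. All 10 arrays used here carry both copies of Adck2 and are of the B6N strain per the labels, and the other 10 are of Adck2+/- mice of the same tissues, derived from targeted C57BL/6 embryonic stem cells. The labels give an age of 3 years and the methods an age of 6 months, and no treatment is named for either group. The 10 arrays were chosen by genotype alone. The methods count 5 WT mice and both tissues, so that arrays of the tissues may share mice, but which arrays do is not stated. The arrays were therefore taken as independent samples, and the p-values measure the spread between these arrays.

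Skeletal muscle is built of multinucleated fibres whose myosin and actin filaments slide past each other when calcium leaves the sarcoplasmic reticulum, and its fibres keep phosphocreatine, glycogen and many mitochondria at hand for this work. Liver is built mainly of hepatocytes, which secrete most plasma proteins, make glucose, urea, bile acids and lipoproteins, and clear foreign compounds. Many enzymes that both tissues need are encoded by gene pairs of which 1 gene is used in muscle and the other in liver. Bulk RNA of a tissue holds every cell type in it, so fewer cells of a type and less RNA per cell cannot be told apart in any of the values below.

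The promoter windows of 6 genes are printed here because these genes stand for both programmes in the results. Each window runs from 250 bases before to 50 bases after the start of the gene in RefSeq (build GRCm38.p6), 5′ to 3′ on the strand of the gene. For the muscle genes the windows are those of Acta1, the skeletal muscle actin (chr8:123894726-123895025, minus strand), of Myl1, a myosin light chain of fast fibres (chr1:66945007-66945306, minus strand), and of Des, the intermediate filament desmin (chr1:75360042-75360341, plus strand). For the liver genes they are those of Alb, serum albumin (chr5:90460620-90460919, plus strand), of G6pc, glucose-6-phosphatase (chr11:101367466-101367765, plus strand), and of Cyp3a11, a drug-metabolizing cytochrome P450 (chr5:145879805-145880104, minus strand). Capitals mark matches on either strand to the E-box CAGCTG in Acta1, Myl1 and Des, to the CArG box and the TATA box TATAAA in Acta1, to the MEF2 core CTANNNNTA in Myl1 and Des, to the C/EBP half-site TTNNGCAA and the HNF1 site GTTAATNAT in Alb, to the HNF1 site and the TATA box in G6pc, and to the HNF4 site CAAAGTCCA in Cyp3a11. In Des the capitals at the 3′ side are a pair of MEF2 core matches, 1 on each strand, that overlap.
Acta1: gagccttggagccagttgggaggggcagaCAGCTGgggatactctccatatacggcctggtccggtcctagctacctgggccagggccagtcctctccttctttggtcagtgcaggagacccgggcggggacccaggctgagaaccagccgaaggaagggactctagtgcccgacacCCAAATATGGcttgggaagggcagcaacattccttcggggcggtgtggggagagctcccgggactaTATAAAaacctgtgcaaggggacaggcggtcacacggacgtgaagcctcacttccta
Myl1: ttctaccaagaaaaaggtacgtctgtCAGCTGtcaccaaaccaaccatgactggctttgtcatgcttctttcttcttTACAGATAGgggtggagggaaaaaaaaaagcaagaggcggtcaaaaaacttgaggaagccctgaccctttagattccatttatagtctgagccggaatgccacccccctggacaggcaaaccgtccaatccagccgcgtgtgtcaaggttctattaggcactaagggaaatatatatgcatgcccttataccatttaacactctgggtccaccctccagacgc
Des: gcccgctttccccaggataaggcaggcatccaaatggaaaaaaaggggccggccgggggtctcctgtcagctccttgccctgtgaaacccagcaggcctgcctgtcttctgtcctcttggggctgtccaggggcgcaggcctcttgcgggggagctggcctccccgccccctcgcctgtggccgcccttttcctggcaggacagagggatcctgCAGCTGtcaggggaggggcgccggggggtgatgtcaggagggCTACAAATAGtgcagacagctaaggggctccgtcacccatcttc
Alb: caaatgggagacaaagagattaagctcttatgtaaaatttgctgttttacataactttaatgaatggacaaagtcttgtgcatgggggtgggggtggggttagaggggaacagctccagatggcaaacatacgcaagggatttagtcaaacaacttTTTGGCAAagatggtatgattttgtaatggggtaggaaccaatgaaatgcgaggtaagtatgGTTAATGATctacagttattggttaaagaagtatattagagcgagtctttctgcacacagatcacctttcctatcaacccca
G6pc: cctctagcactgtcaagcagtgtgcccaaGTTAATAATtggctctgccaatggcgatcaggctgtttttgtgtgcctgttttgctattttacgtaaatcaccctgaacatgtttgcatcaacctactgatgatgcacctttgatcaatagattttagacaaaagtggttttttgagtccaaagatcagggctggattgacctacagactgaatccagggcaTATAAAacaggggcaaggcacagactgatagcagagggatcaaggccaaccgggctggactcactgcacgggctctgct
Cyp3a11: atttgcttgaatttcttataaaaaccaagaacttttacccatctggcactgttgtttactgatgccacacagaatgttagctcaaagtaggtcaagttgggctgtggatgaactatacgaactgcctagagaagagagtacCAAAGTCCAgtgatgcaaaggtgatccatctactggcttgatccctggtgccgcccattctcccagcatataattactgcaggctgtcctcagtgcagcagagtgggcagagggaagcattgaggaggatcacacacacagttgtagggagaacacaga

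E-boxes are bound by the MyoD family and the CArG box by SRF, while HNF1, HNF4 and C/EBP factors are known from hepatocytes. The MEF2 core holds the outer letters of sites bound by MEF2 factors. As searched here it leaves the middle bases NNNN open to any letter, so a match need not be a MEF2 site. The same letters were counted in the windows of all genes, 1 window per gene, the first listed where a gene had several. A window was at hand for 874 of 1126 genes at least 4-fold higher in muscle, 959 of 1191 at least 4-fold higher in liver and 7354 of 9034 genes tested, among 27025 windows in all. In this order of groups the E-box was found in 20.5%, 16.3%, 15% and 16.1%. The CArG box was found in 2.63%, 1.77%, 1.5% and 1.57%, and the MEF2 core in 18.1%, 15.6%, 14.7% and 21%. Among the genes tested, these muscle motifs had their highest share in the muscle genes. The HNF1 site was found in 0.229%, 2.82%, 0.653% and 0.836%, the HNF4 site in 0.343%, 1.15%, 0.394% and 0.477% and the C/EBP half-site in 8.81%, 12.8%, 8.78% and 10.8%, each with its highest share in the liver genes. The TATA box was found in 11.6%, 13.7%, 8.27% and 14.2%, more often in either group than among the genes tested. These shares describe letters in the windows, without a test and without a statement on binding.

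Muscle and liver differed in most of the genes that could be measured. A gene was kept if its probe was above background (detection p under 0.05) on at least 5 of the 10 arrays, which left 9034 of the 16593 gene symbols on the array. Levels are normalized log2 signals, and differences are muscle minus liver on the log2 scale with the standard error of limma's linear model. A gene was called at an adjusted p (limma, Benjamini-Hochberg over all genes) under 0.05. By this rule 3793 genes were higher in muscle (42.0% of those tested) and 3413 were higher in liver (37.8%). A difference of at least 4-fold was also reached by 1126 genes in muscle (12.5%) and 1191 in liver (13.2%). For 6210 genes (68.7%) the 5 arrays of one tissue all lay above the 5 of the other. By the most often detected probe of a gene in each tissue, 6369 genes were above background on every array of both tissues. Of these genes 5023 were called, 573 of them at least 4-fold higher in muscle and 567 at least 4-fold higher in liver. The median difference over all genes tested was 0.07, and with the bounds described next in place of the fitted values it was 0.07.

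**Figure D1:**
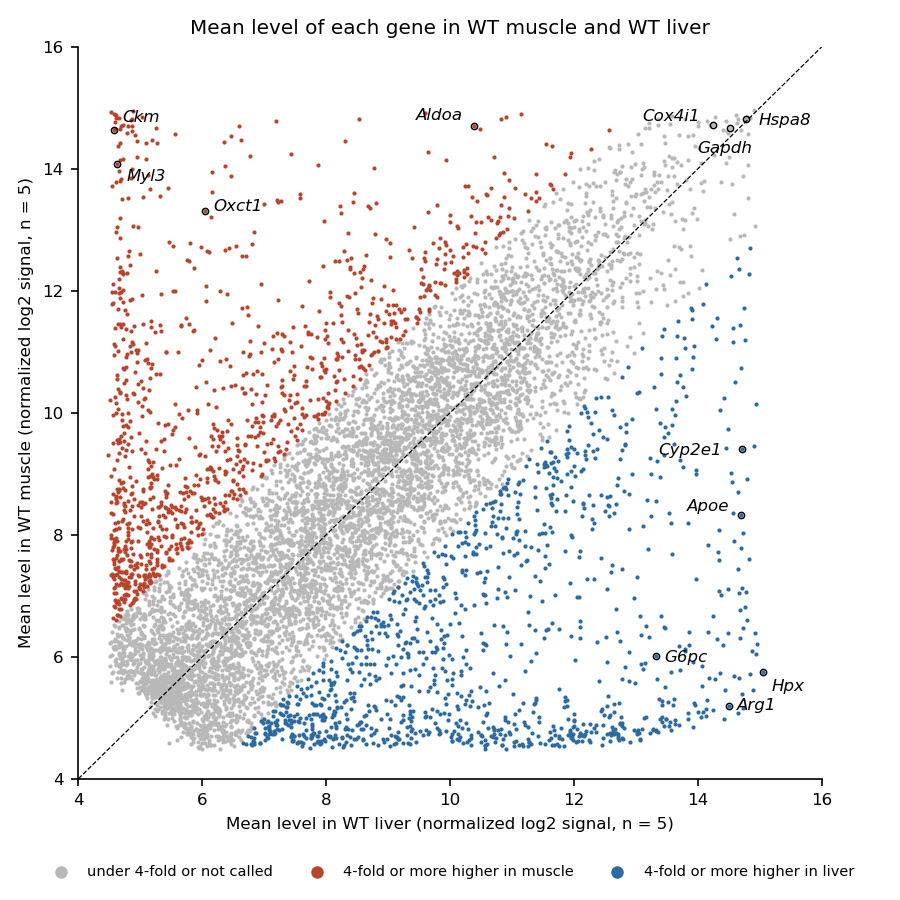
Mean normalized log2 signal of each gene in WT liver (x axis) and WT muscle (y axis), 5 arrays each, with the line of equal level dashed. Red points are the 1126 genes at least 4-fold higher in muscle, blue points the 1191 genes at least 4-fold higher in liver and grey points all others; Ckm and Myl3 sit at the liver background, and Hpx and Arg1 sit at the lower right.

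Part of the genes passed the filter through 1 tissue alone and so had to differ: 452 were not above background on any liver array and 476 not on any muscle array. For such a gene only a bound can be given, the mean of the bright tissue over the lowest signal above background in the dim one (or the gene's own signal there, if higher), and it is written as at least N-fold. The bounds printed for single genes were computed under the main background correction and scaling alone. Where a gene was above background on only some arrays of a tissue, their number is given, and the size of its fitted difference then rests in part on background signal. A gene counts here by its most often detected probe in each tissue, while the number given is that of the probe that stood for it. For Slc16a3 and Mbp that number is 0 in liver, and no bound was set. Medians of genes listed by function are accordingly given with the fitted values and with these bounds. They were recomputed under 5 other ways of background correction and scaling, called the other scalings here, and their range is given where a median fell by more than 1.5 times or a direction was at stake. Within a tissue the arrays were close to each other, with correlations over genes of 0.971 to 0.993 in liver and 0.979 to 0.990 in muscle, against 0.472 to 0.525 between tissues. The median SD of a gene was 0.24 in liver and 0.20 in muscle. The arrays carried 11626 to 12604 detected probes, and their number limits the precision of every value. The myofibre markers were as labelled, since 8 of 8 were above background on every muscle array and 1 on every liver array. Of 6 hepatocyte markers, 6 were above background on every liver array and 2 to 5 on the muscle arrays.

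The genes farthest from equality in favour of muscle were parts of the contractile machinery and of its energy supply. By the fit these 12 were Ckmt2, Tnnc2, Tcap, Myh4, Ampd1, Pvalb, Ckm, Ryr1, Myl1, Mb, Mybpc2 and Ttn, and 11 of them were not above background on any liver array, so no order is read among them. Ckm, the creatine kinase of muscle that recharges ATP from phosphocreatine, read 4.64, 4.50, 4.50, 4.68 and 4.54 on liver arrays 1 to 5 and 14.60, 14.61, 14.75, 14.62 and 14.63 on muscle arrays 1 to 5. The tissues did not overlap, and Ckm was at least 640.3-fold higher in muscle. It had passed the filter through muscle alone and could only be higher there. Myh4, the myosin heavy chain of the fastest fibres, read 4.57, 4.53, 4.73, 4.63 and 4.49 in liver and 14.78, 14.85, 14.70, 14.79 and 14.76 in muscle, at least 703-fold higher. For Ryr1, the channel that releases calcium from the sarcoplasmic reticulum, the levels were 4.62, 4.51, 4.74, 4.55 and 4.53 in liver and 14.61, 14.67, 14.77, 14.52 and 14.74 in muscle, at least 649-fold higher. In each of these 3 genes every muscle array lay above every liver array, and no liver array was above background. Over the 11 genes the bounds ran from 640.3-fold to 788-fold. These sizes depend on the processing. Among the alternatives described at the end, the lowest fitted log2 difference was 6.29 for Ckm, 6.49 for Ampd1 and 6.60 for Ckmt2.

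**Figure D2:**
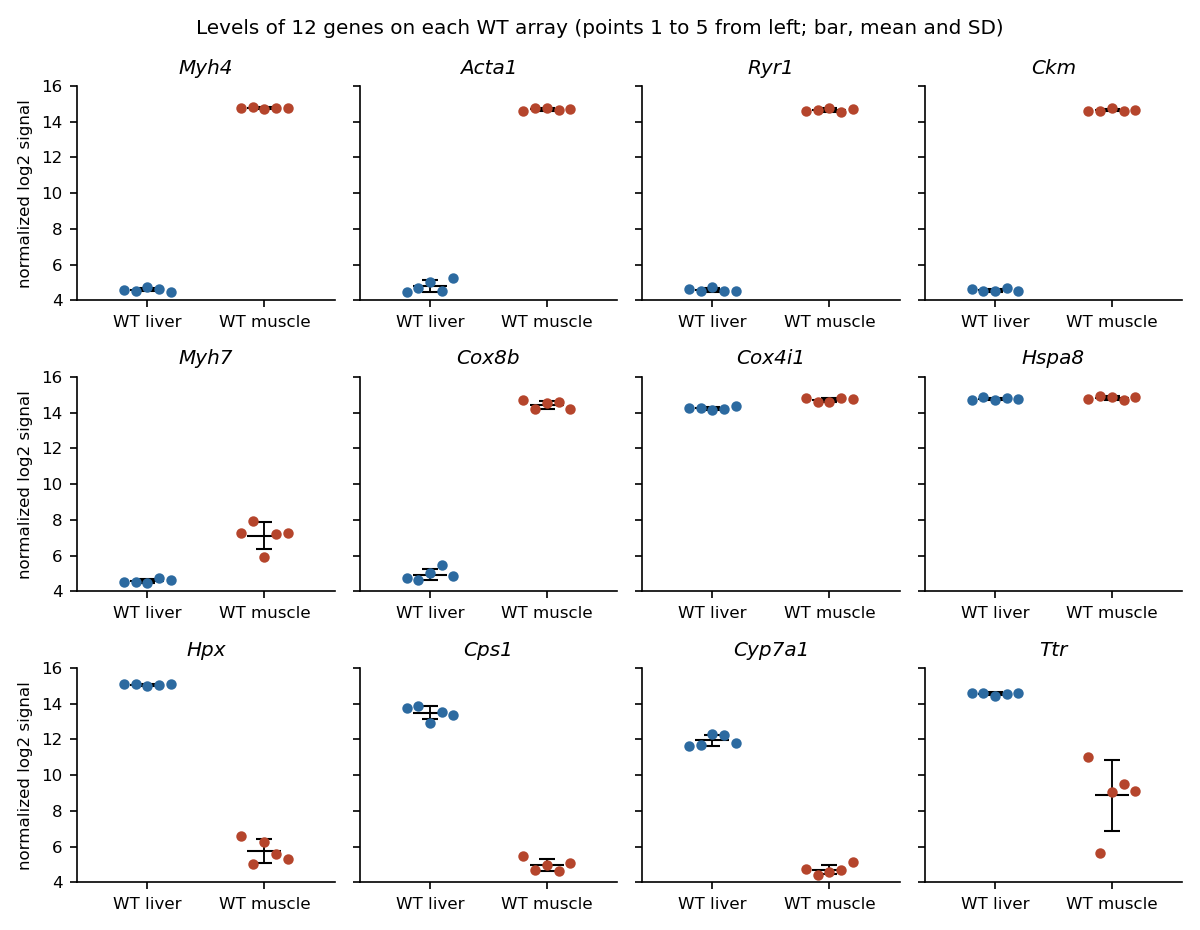
Normalized log2 signal (y axis) of 12 genes on each of the 5 WT liver arrays (blue) and 5 WT muscle arrays (red), arrays 1 to 5 from left to right, with the mean and the SD as bars. Myh4, Acta1, Ryr1 and Ckm are above 14 in muscle and near background in liver, Hspa8 is level, and Ttr spreads from 5.64 to 11.002 over the muscle arrays.

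The thick filament, made of myosin and its binding proteins, was higher in muscle in 14 of 14 members tested (median 9.37, with bounds 8.91, 11 not above background in liver, against 0.07 over all genes, of which 42.0% were higher in muscle). Mylpf, the regulatory light chain of fast fibres, was at least 738-fold higher. The smallest difference was that of Myom2, a protein of the M-band, at a fitted 1.61 ± 0.18 and at least 1.8-fold. For the thin filament, the actin strand with its troponin and tropomyosin, 11 of 13 members were higher in muscle (median 7.54, with bounds 6.80, 6 not above background in liver) and 2 were not called. Acta1, whose promoter is printed above, read 4.49, 4.68, 5.02, 4.53 and 5.24 in liver and 14.61, 14.78, 14.76, 14.65 and 14.69 in muscle, at least 666-fold higher. Tnnt3, the fast troponin T, was at least 617-fold higher, and Tpm2, the beta tropomyosin, differed by 6.19 ± 0.19. The members not called were Tpm1 (0.14 ± 0.10) and Tpm3 (-0.39 ± 0.27), tropomyosins that other cells use as well. The call of Tpm3 depended on the probe: the brightest probe stood for the gene, and the other 3 probes gave 5.93, 6.13 and 6.57, all higher in muscle. Leaving out liver array 1, 2, 4 or 5 made another probe the brightest and gave 6.47 to 6.68.

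At the Z-disk, where thin filaments are anchored, 19 of 20 members were higher in muscle (median 7.43, with bounds 6.81, 10 not above background in liver). Tcap, which caps titin at the Z-disk, was at least 757-fold higher, and Actn3, the alpha-actinin of fast fibres, differed by 8.10 ± 0.14. Des, which links neighbouring myofibrils, read 6.54, 5.80, 6.58, 6.27 and 6.68 in liver and 14.07, 14.21, 14.01, 13.91 and 14.08 in muscle, a difference of 7.68 ± 0.16. The member not called was Csrp3, a stress-responsive Z-disk protein, at 0.74 ± 0.55 by its brightest probe, while its other probes gave 2.16 and 2.32. Without muscle array 3, on which it was lowest (8.77), Csrp3 was called as well (1.39) and all 20 members were higher in muscle.

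Genes of excitation-contraction coupling, by which a nerve impulse becomes a calcium pulse, were higher in muscle in 20 of 20 cases (median 5.78, with bounds 5.25, 14 not above background in liver, 3.56 to 5.68 under the other scalings). Pvalb, a calcium buffer of fast fibres, was at least 733-fold higher, and Atp2a1, which pumps calcium back in fast fibres, differed by 9.33 ± 0.15 (2 of 5 liver arrays above background). Casq1, which stores calcium in the reticulum, was at least 104-fold higher. The smallest fitted difference was that of Cacng6, a calcium channel subunit (at least 3.0-fold). The dystrophin complex, which ties the cytoskeleton to the matrix, was higher in muscle in 9 of 9 members (median 4.04, with bounds 3.33, 4 not above background in liver, 1.97 to 3.97 under the other scalings). Sgca, a sarcoglycan, was at least 94.3-fold higher, while Dag1, the dystroglycan that many tissues share, differed by 1.12 ± 0.13.

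At the neuromuscular junction 7 of 9 members were higher in muscle and 2 in liver (median 2.18, with bounds 1.76, 4 not above background in liver, 0.80 to 2.14 under the other scalings). The acetylcholine receptor subunits led: Chrna1 was at least 19.8-fold higher in muscle. Chrnb1 differed by 5.48 ± 0.18 and Chrne, the subunit of the adult receptor, by 2.91 ± 0.21 (3 of 5 liver arrays above background). The members higher in liver were Agrn (-1.47 ± 0.16), which encodes the nerve-derived organizer agrin that is also a matrix protein elsewhere, and its receptor Lrp4 (-0.44 ± 0.16). Under the other scalings 1 to 2 members were higher in liver, and Lrp4, chosen after its values were seen, was not called without liver array 4 or without muscle array 2 or 3 (-0.39 to -0.34).

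Isoforms of fast fibres were higher in muscle in 12 of 12 members (median 9.81, with bounds 9.38, 8 not above background in liver), and isoforms of slow, oxidative fibres in 9 of 10 (median 5.33, with bounds 5.05, 6 not above background in liver). Myh7, the slow myosin heavy chain, read 4.54, 4.50, 4.46, 4.76 and 4.61 in liver and 7.28, 7.95, 5.92, 7.21 and 7.26 in muscle. The tissues did not overlap, the slow myosin was at least 3.5-fold higher in muscle (fitted 2.55 ± 0.28), and array 3 was the lowest of the muscle arrays. Tnnt1, the slow troponin T, read 6.08, 6.37, 6.88, 6.67 and 6.73 in liver and 12.76, 13.09, 12.03, 13.04 and 12.72 in muscle, a difference of 6.18 ± 0.21, with array 3 again lowest. Myl3, the slow light chain, was at 12.67 on muscle array 3 and at 14.28 to 14.57 on the other 4. Over the slow list the mean level was 10.15 on muscle array 3, against 11.31 to 11.71 on the other muscle arrays and 6.03 to 6.18 on the liver arrays. Over the fast list the muscle arrays ranged from 14.42 to 14.57. Without muscle array 3 the slow list had a median of 5.59 with 9 members higher in muscle. Which part of the muscle was taken for each array is not given, and the part of the fibre makeup in these values was not tested.

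**Figure D3:**
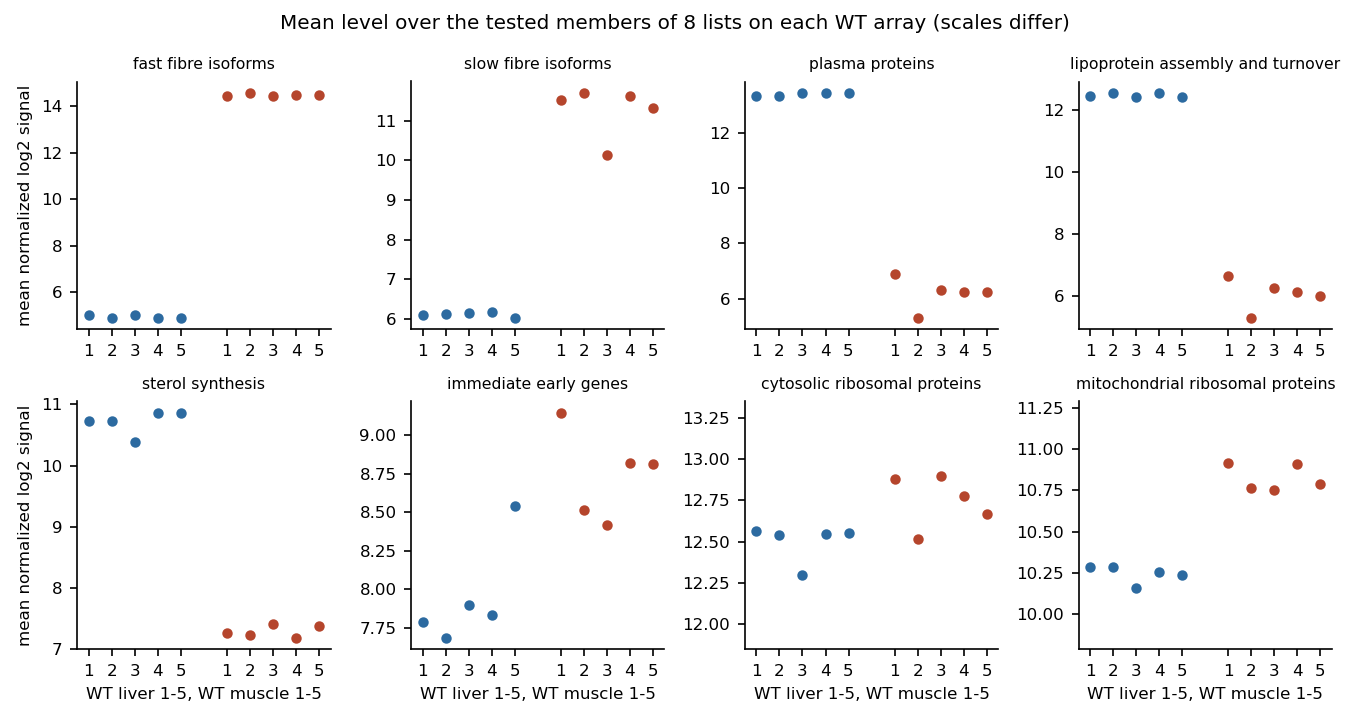
Mean normalized log2 signal (y axis, with its own scale in each panel) over the tested members of 8 gene lists on the WT liver arrays 1 to 5 (blue, left) and WT muscle arrays 1 to 5 (red, right). Muscle array 3 is low in slow fibre isoforms (10.15), muscle array 2 is low in plasma proteins (5.30), and liver array 3 is low in sterol synthesis (10.38).

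Genes that buffer ATP and oxygen were higher in muscle in 8 of 8 members (median 9.74, with bounds 9.08, 5 not above background in liver). Ckmt2, the mitochondrial creatine kinase, was at least 788-fold higher, Mb, the oxygen store myoglobin, at least 678-fold, and Ak1, a cytosolic adenylate kinase, at least 455-fold. The smallest difference was that of Slc16a3, a lactate exporter, at a fitted 2.25 ± 0.18 by its brightest probe. That probe was above background on 0 of 5 liver arrays, so this size rests in part on background signal. The other probe of Slc16a3 gave -0.35, which was not called. Adaptors of muscle ubiquitin ligases, which mark muscle proteins for breakdown, were higher in muscle in 9 of 9 members (median 6.24, with bounds 5.81, 6 not above background in liver). Trim63, known as MuRF1, was at least 30.9-fold higher. Fbxo32, known as atrogin-1, was detected in both tissues and differed by 6.52 ± 0.17.

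Glycolysis and glycogen breakdown were higher in muscle in 15 of 16 members (median 5.81, with bounds 5.81, 2 not above background in liver), and 12 of these members were above background on all 10 arrays. Aldoa, an aldolase of muscle, differed by 4.30 ± 0.12, Pfkm, the muscle phosphofructokinase, by 5.33 ± 0.12, and Ldha, which makes lactate, by 1.46 ± 0.15. The member not called was Gapdh, often used as a control gene, at 0.14 ± 0.11 by its brightest probe. Another Gapdh probe gave 0.82, higher in muscle. Many of these enzymes have a counterpart in liver, and the pairs were read next.

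Of 30 isozyme pairs listed, 18 had both genes tested, and in 13 of the 18 the muscle form was higher in muscle and the other form higher in liver. In these pairs each gene is set against itself in the other tissue, since signals of different probes cannot be compared. Glycogen phosphorylase is shown in full. Pygm, the muscle form, read 5.55, 4.60, 4.54, 4.58 and 4.75 in liver and 13.33, 13.59, 13.85, 13.28 and 13.56 in muscle, a difference of 8.72 ± 0.19 (1 of 5 liver arrays above background). Pygl, the liver form, read 14.12, 14.07, 13.75, 13.99 and 13.98 in liver and 9.89, 7.33, 9.38, 8.95 and 9.44 in muscle, a difference of -4.98 ± 0.37. Neither gene overlapped between tissues, and Pygl was lowest on muscle array 2. The glucose transporters parted in the same way: the insulin-responsive Slc2a4 was at least 156-fold higher in muscle, and Slc2a2, the low-affinity transporter of liver, at least 115-fold higher in liver. For pyruvate kinase, Pkm differed by 6.28 ± 0.10 and Pklr was at least 4.99-fold higher in liver. Fructose bisphosphatase differed by 6.12 ± 0.13 (3 of 5 liver arrays above background) for the muscle form Fbp2 and by -7.44 ± 0.21 (2 of 5 muscle arrays above background) for the liver form Fbp1. The remaining pairs that parted belong to glycogen synthase (Gys1 and Gys2), phosphofructokinase, phosphoglycerate mutase (Pgam2 and Pgam1), both phosphorylase kinase subunits, AMP deaminase (Ampd1 and Ampd2), succinyl-CoA ligase and 2 subunits of cytochrome c oxidase. For the liver or general form of phosphofructokinase and of succinyl-CoA ligase, another probe was not called (-0.40 and -0.05).

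In 5 pairs the genes did not part. Atp2a2, the slow and housekeeping calcium pump, was higher in muscle (2.23 ± 0.19), as was Atp2a1. Ckb, the brain creatine kinase, was also higher in muscle (0.87 ± 0.15). Gpt2 and Gpt, the alanine aminotransferases, were both higher in liver (-0.41 ± 0.15 and -2.69 ± 0.12), but Gpt2 was not called without muscle array 1 or 4 (-0.34 and -0.33). Cox7a2 was at -0.29 ± 0.13 with an adjusted p (limma) of 0.05001 and was not called, though it was called under several other settings. The general form of adenylosuccinate synthase was not called either. Over the 18 pairs the muscle form was higher in muscle in 17 and the other form higher in liver in 14.

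**Figure D4:**
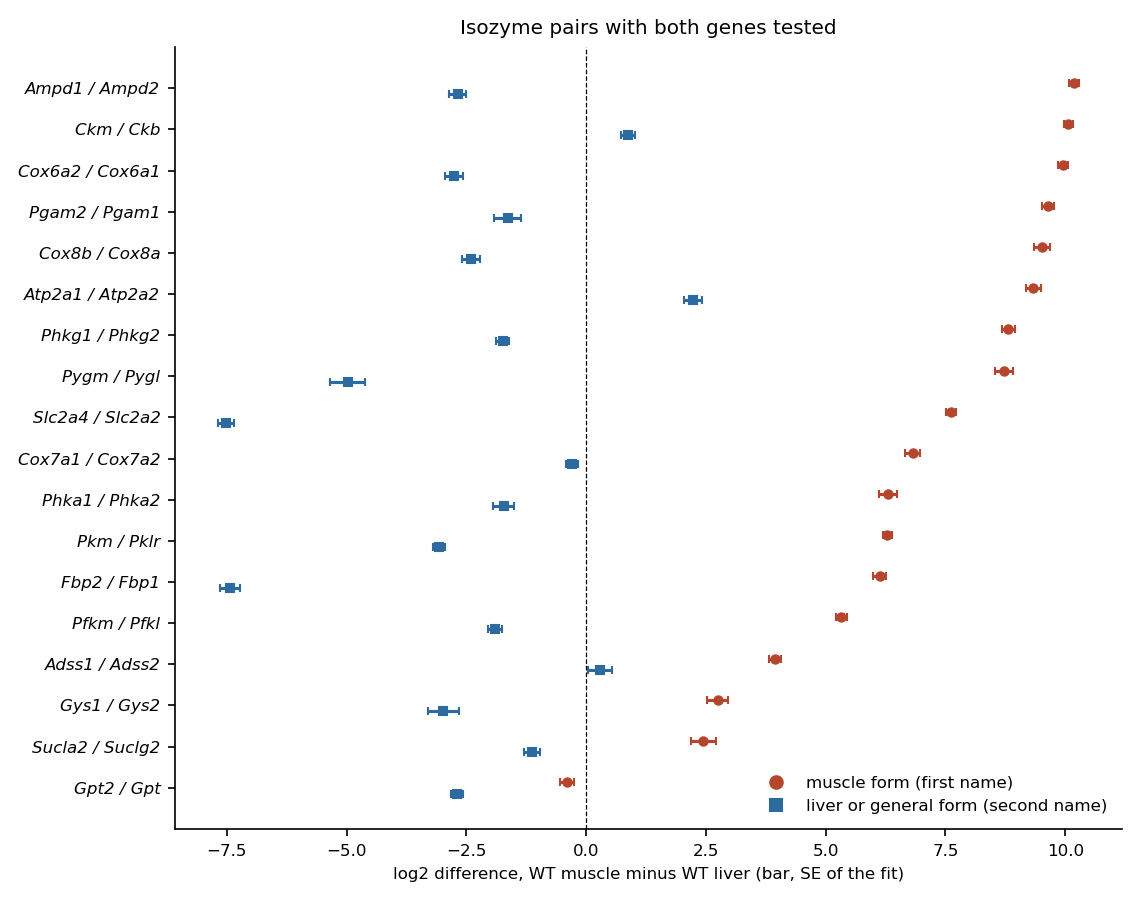
Difference of each gene between WT muscle and WT liver (x axis, log2, muscle minus liver, with the standard error of the fit) for the 18 isozyme pairs with both genes tested (y axis). Red circles are the muscle forms and blue squares the liver or general forms; the circles lie right of 0 in 17 pairs, and the squares lie left of 0 and are called in 14.

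Respiratory chain subunits, which make up the mitochondrial machinery of ATP synthesis, were mostly higher in muscle, where 42.0% of all genes tested were. For complex I, 28 of 32 subunits were higher in muscle and 1 in liver (median 1.06). Ndufb8, a subunit of the membrane arm, differed by 1.18 ± 0.11, the largest difference was that of Ndufa12 (2.11 ± 0.13), and the member higher in liver was Ndufab1 (-0.87 ± 0.16), an acyl carrier protein that also serves lipoate synthesis. For complexes II and III, 10 of 10 were higher in muscle (median 1.18), with Sdhb at 1.66 ± 0.14 and Uqcrc1 at 1.26 ± 0.11. For ATP synthase 11 of 15 were higher in muscle and 1 in liver (median 0.85), and its catalytic subunit Atp5b was at 0.17 ± 0.09 and was not called. These counts depended on how the tissues were scaled to each other. Under the other scalings the median ran from 0.75 to 0.97 for complex I with 20 to 28 members higher in muscle, from 0.76 to 1.17 for complexes II and III with 6 to 10 members, and from 0.44 to 0.86 for ATP synthase with 6 to 12 members.

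In complex IV the subunits with tissue isoforms stood apart from the rest. Cox6a2, the muscle form of subunit 6A, read 4.90, 5.03, 4.72, 4.91 and 4.67 in liver and 14.75, 14.65, 14.93, 14.90 and 14.80 in muscle, at least 717-fold higher. Cox6a1, its counterpart, read 13.66, 13.75, 13.45, 13.69 and 13.74 in liver and 11.49, 10.30, 10.82, 11.19 and 10.66 in muscle, a difference of -2.76 ± 0.19. The forms differed in opposite directions without overlap between tissues. Cox8b and Cox7a1, also muscle forms, differed by 9.51 ± 0.17 (1 of 5 liver arrays above background) and 6.81 ± 0.16, and Cox8a, the general form of subunit 8, by -2.41 ± 0.18. Cox4i1, a subunit without such a split here, differed by 0.47 ± 0.10 and was not called by median scaling, by cyclic loess or without normalization (0.13 to 0.24). In all, 11 of 14 subunits were higher in muscle and 2 in liver, with a median of 0.49, and 4 to 11 were higher in muscle under the other scalings (medians 0.20 to 0.51).

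The tricarboxylic acid cycle was higher in muscle in 14 of 16 members and higher in liver in 2 (median 1.44, 1.12 to 1.33 under the other scalings). Cs, citrate synthase, differed by 2.64 ± 0.12 and Idh3a, the catalytic subunit of the NAD-linked isocitrate dehydrogenase, by 5.18 ± 0.10. Its subunit Idh3b went the other way (-2.33 ± 0.11). In fatty acid beta-oxidation 6 of 17 members were higher in muscle and 5 in liver, against 42.0% and 37.8% of all genes tested. Its median was 0.11 and changed sign under 4 of the 5 other scalings (-0.32 to 0.11). Cpt1b, the muscle form of the enzyme that admits fatty acids to mitochondria, differed by 6.23 ± 0.16. Acadm, the medium-chain dehydrogenase, differed by 0.55 ± 0.12 and was not called under 4 of those scalings. Acaa2, the thiolase of the last step, was higher in liver by its brightest probe (-1.99 ± 0.20), and its other 3 probes were not called.

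Of 3 ketone body enzymes tested, 1 was higher in muscle, 1 was higher in liver and Acat1, a thiolase, was not called (-0.03 ± 0.12). Oxct1, the enzyme by which tissues outside the liver use ketone bodies, read 6.09, 5.29, 6.11, 6.28 and 6.41 in liver and 13.37, 13.58, 12.71, 13.58 and 13.33 in muscle, a difference of 7.28 ± 0.22. Bdh1, which interconverts the ketone bodies, was higher in liver (-2.41 ± 0.53), with muscle array 3 at 6.64 and the other muscle arrays at 9.41 to 10.04. Of 14 enzymes and regulators of branched-chain amino acid breakdown, 10 were higher in liver and 2 in muscle (median -0.54). Of all genes tested 37.8% were higher in liver and 42.0% in muscle. Bckdk, the kinase that inactivates the branched-chain dehydrogenase, was higher in muscle (3.92 ± 0.14). Ppm1k, the phosphatase that activates it, was higher in liver (-1.69 ± 0.11). Bckdha, a subunit of that dehydrogenase, differed by -0.62 ± 0.12, and Bcat2, the mitochondrial aminotransferase, by 0.30 ± 0.14 and was not called.

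Genes of coenzyme Q synthesis were listed together with the ADCK kinases, the family of the gene the study targeted. Of 12 members tested, 8 were higher in muscle and 2 in liver (median 1.09), with the same counts under all 5 other scalings. Of all genes tested 42.0% were higher in muscle and 37.8% in liver. Coq9, a lipid-binding protein of the synthesis complex, read 10.09, 10.03, 9.25, 9.92 and 9.67 in liver and 12.53, 12.77, 12.08, 12.60 and 12.67 in muscle, a difference of 2.73 ± 0.18. Coq7, its hydroxylase partner, differed by 1.58 ± 0.17. The kinase-like paralogs Coq8a and Coq8b went opposite ways. Coq8a read 7.07, 7.26, 6.42, 7.25 and 6.81 in liver and 8.49, 8.57, 7.40, 8.76 and 8.15 in muscle (1.31 ± 0.25). Coq8b read 7.55, 6.61, 7.01, 7.45 and 7.14 in liver and 4.86, 4.89, 5.25, 4.88 and 5.23 in muscle, where no array was above background, and was at least 3.64-fold higher in liver (fitted -2.13 ± 0.17). For both the tissues did not overlap. Adck5, another member of the kinase family, was higher in liver (-3.02 ± 0.21).

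Adck2 itself has 1 probe, which was above background on 1 of the 10 WT arrays, muscle array 3, and so was not tested. Its levels were 4.86, 4.83, 5.02, 4.86 and 5.25 on the liver arrays and 5.07, 4.97, 5.59, 5.18 and 4.68 on the muscle arrays, and these ranges overlap. Among the regulators of mitochondrial mass, 6 of 8 were higher in muscle and 2 in liver, against 42.0% and 37.8% of all genes tested. Ppargc1a, the coactivator PGC-1alpha, differed by 2.37 ± 0.21 and Perm1, a muscle regulator downstream of it, by 8.51 ± 0.18 (1 of 5 liver arrays above background). Ppara, the receptor that drives fatty acid oxidation genes in liver, was at least 2.08-fold higher in liver.

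**Figure D5:**
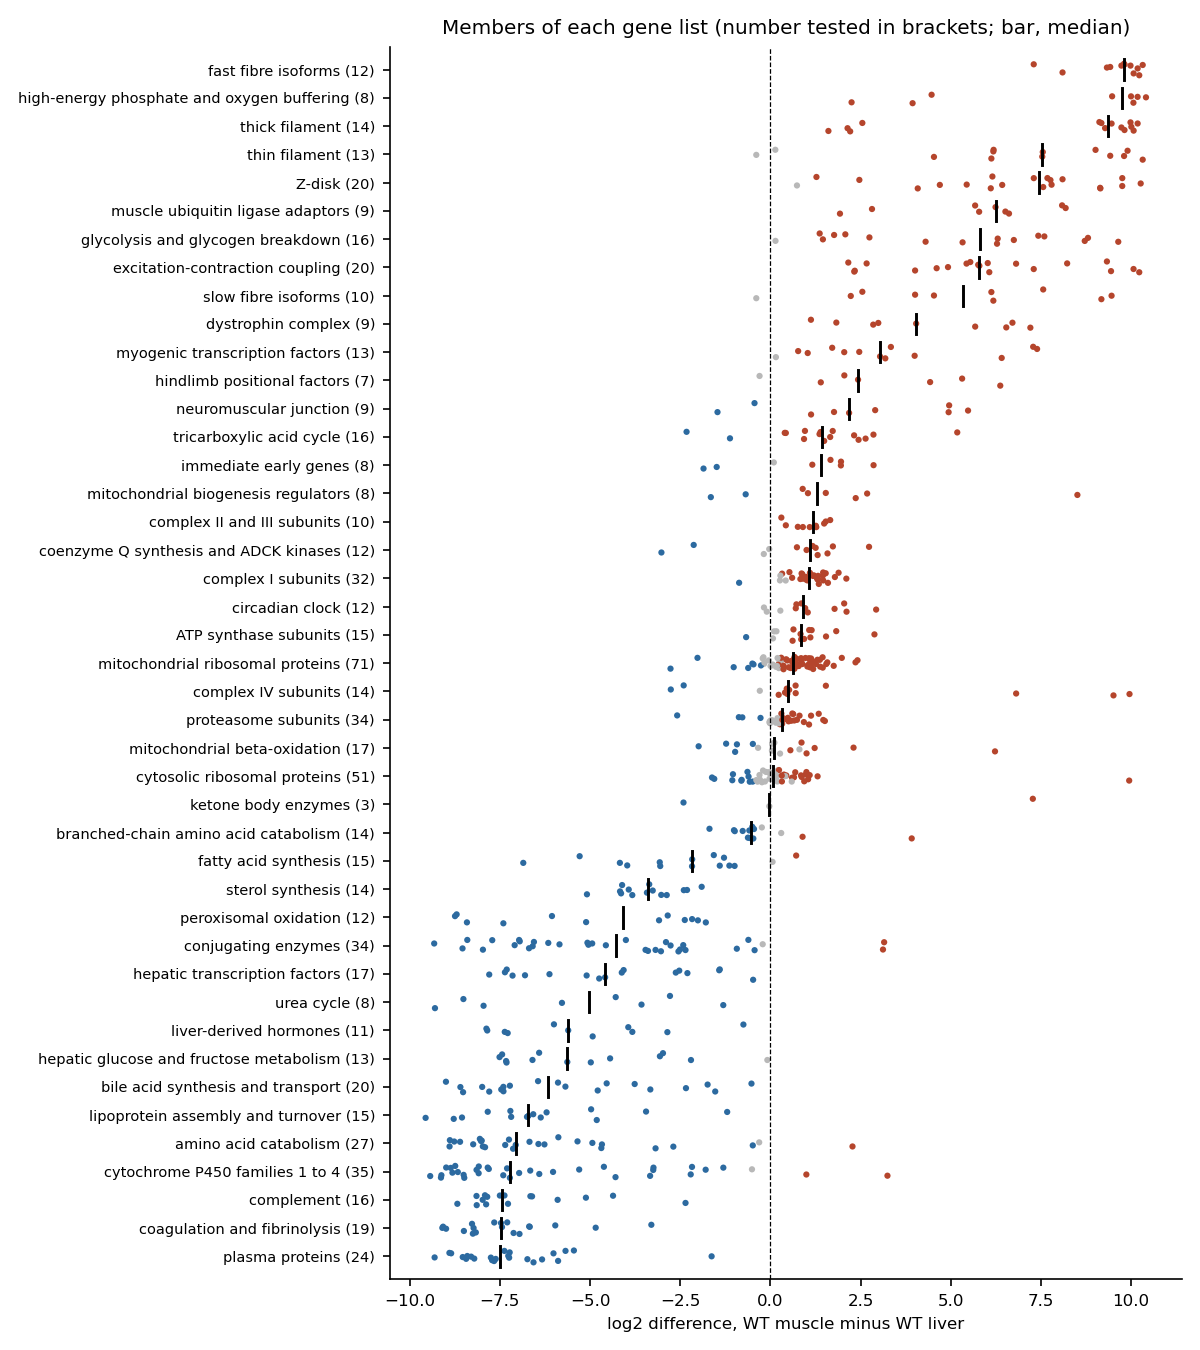
Difference of each tested member between WT muscle and WT liver (x axis, log2, muscle minus liver) for 43 gene lists (y axis, with the number tested in brackets); black bars are list medians. Red points were higher in muscle, blue points higher in liver and grey points not called; the medians run from 9.81 for fast fibre isoforms to -7.50 for plasma proteins, and those of beta-oxidation and cytosolic ribosomal proteins lie near 0.

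On the liver side the genes farthest from equality encode secreted proteins and enzymes of hepatocytes. The 12 were Apoc4, Hpx, Arg1, Cyp2d10, Ugt2b36, Cyp2c50, Cyp2d9, Proc, Serpinf2, Mug1, Mug2 and Ces1c, with fitted differences of -9.59 to -9.04, and each was above background on at least 1 muscle array. Hpx, hemopexin, which carries heme in plasma, read 15.09, 15.09, 14.98, 15.05 and 15.09 in liver and 6.59, 5.03, 6.27, 5.57 and 5.29 in muscle, a difference of -9.31 ± 0.25 (3 of 5 muscle arrays above background) (adjusted p = 1.06e-12, limma). Arg1, the arginase that ends the urea cycle, read 14.70, 14.63, 14.40, 14.28 and 14.50 in liver and 5.94, 4.40, 5.07, 5.10 and 5.48 in muscle, a difference of -9.30 ± 0.23 (2 of 5 muscle arrays above background). In both genes the 5 liver arrays lay within a narrow range while the muscle arrays spread more, with muscle array 1 highest and muscle array 2 lowest. Hpx in liver reached the highest level of any gene tested (15.09). The normalization gave all 10 arrays the same set of levels, which caps the top of the scale alike on each. How far this narrowed the range of Hpx was not tested.

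Secreted proteins were higher in liver, where 37.8% of all genes tested were. Members that were not above background on any muscle array had passed the filter through liver alone and could only be higher there. Higher in liver were 24 of 24 plasma proteins (median -7.50, with bounds -7.32, 7 not above background in muscle), 15 of 15 genes of lipoprotein assembly and turnover (median -6.71, with bounds -6.37, 4 not above background in muscle), 19 of 19 of coagulation and fibrinolysis (median -7.47, with bounds -7.07, 11 not above background in muscle) and 16 of 16 of complement (median -7.44, with bounds -7.13, 8 not above background in muscle). Trf, the iron carrier transferrin, differed by -5.89 ± 0.35 and Ahsg, fetuin-A, by -7.38 ± 0.45 (4 of 5 muscle arrays above background). Apoe, an apolipoprotein that other tissues also make, differed by -6.37 ± 0.20, and Mttp, which loads lipid onto apolipoprotein B, by -4.97 ± 0.14 (2 of 5 muscle arrays above background). F2, prothrombin, differed by -7.66 ± 0.27 (4 of 5 muscle arrays above background) and Serpinc1, antithrombin, was at least 135-fold higher in liver. C9, a pore-forming complement component, differed by -7.28 ± 0.17 (3 of 5 muscle arrays above background). The smallest differences in these groups were those of Alb, Scarb1 (at least 1.5-fold), an HDL receptor, Pros1 (-3.30 ± 0.12), protein S, and C1s1 (-2.35 ± 0.19), a complement protease.

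The level of Alb was low in both tissues. Serum albumin is the most abundant plasma protein, yet its probe read 5.74, 5.99, 6.66, 6.81 and 5.73 in liver and 4.57, 4.59, 4.63, 4.52 and 4.45 in muscle, above background on all liver arrays and on no muscle array, and the gene was at least 1.86-fold higher in liver. Its tissues did not overlap. The level of a probe cannot be set against that of another, so the amount of albumin RNA cannot be read from it.

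Transcripts of plasma proteins were also read on the muscle arrays, and unevenly. Over the 24 plasma proteins, 5 to 17 were above background on a muscle array, with 17 on array 1 and 5 on array 2, and the mean level ran from 5.30 to 6.91 against 13.35 to 13.47 in liver. Ttr, transthyretin, which carries thyroid hormone and retinol-binding protein, read 14.57, 14.62, 14.41, 14.55 and 14.61 in liver and 11.002, 5.64, 9.08, 9.52 and 9.12 in muscle, a difference of -5.68 ± 0.71. The liver arrays stayed close together while the muscle arrays spread from array 2 at the bottom to array 1 at the top. Apoa1, the main protein of HDL, showed the same order at its ends, with 9.12, 4.79, 7.67, 7.96 and 7.65 on the muscle arrays. Of the 6 hepatocyte markers, 5 were above background on muscle array 1 and 2 on muscle array 2, and the markers of hepatocytes summed to signals of 118 to 3019 on the muscle arrays against 88988 to 97351 on the liver arrays. Without muscle array 2 all 24 plasma proteins were still higher in liver (median -7.16), and likewise without muscle array 1 (-7.71). The part of liver RNA in the muscle samples was not tested.

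Nitrogen and glucose metabolism of liver followed. All 8 urea cycle genes were higher in liver (median -5.04, with bounds -4.67, 2 not above background in muscle, -5.08 to -2.95 under the other scalings). Cps1, which fixes ammonia in the first step, read 13.74, 13.87, 12.94, 13.56 and 13.35 in liver and 5.50, 4.71, 4.97, 4.62 and 5.09 in muscle, a difference of -8.51 ± 0.20 (1 of 5 muscle arrays above background) without overlap. Glud1, glutamate dehydrogenase, which both tissues use, differed least (-1.31 ± 0.35). In amino acid catabolism 25 of 27 members were higher in liver (median -7.06, with bounds -6.47, 11 not above background in muscle), among them Bhmt, which remethylates homocysteine (-8.90 ± 0.21, 2 of 5 muscle arrays above background), and Tdo2, which opens the ring of tryptophan (at least 63.8-fold). The member higher in muscle was Got1, the cytosolic aspartate aminotransferase, with 8.52, 8.53, 7.87, 8.52 and 7.99 in liver and 10.82, 10.61, 10.04, 10.88 and 10.46 in muscle (2.28 ± 0.19). Hepatic glucose and fructose metabolism was higher in liver in 12 of 13 members (median -5.63, with bounds -5.62, 4 not above background in muscle). G6pc, the last step of glucose release, read 13.02, 13.02, 13.79, 13.60 and 13.21 in liver and 6.30, 6.24, 5.26, 6.08 and 6.16 in muscle (-7.32 ± 0.22, 4 of 5 muscle arrays above background), and Pck1, the first committed step of gluconeogenesis, differed by -5.63 ± 0.36 (2 of 5 muscle arrays above background). The member not called was Slc37a4, the glucose-6-phosphate transporter that works beside G6pc (-0.09 ± 0.19).

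Cytochrome P450 genes of families 1 to 4 were higher in liver in 32 of 35 members and in muscle in 2 (median -7.23, with bounds -6.84, 15 not above background in muscle). Cyp3a11, which oxidizes many drugs, read 13.98, 14.07, 12.37, 13.95 and 13.10 in liver and 5.21, 4.86, 5.33, 4.82 and 4.71 in muscle (-8.51 ± 0.30, 2 of 5 muscle arrays above background). Cyp2e1, which oxidizes ethanol, differed by -5.30 ± 0.45. The members higher in muscle were Cyp4f39 (3.25 ± 0.18, 1 of 5 liver arrays above background), a fatty acid hydroxylase, and Cyp1b1 (1.00 ± 0.25, 2 of 5 liver arrays above background), an oxidase known from tissues outside the liver. Of the conjugating enzymes, which make compounds soluble for excretion, 31 of 34 were higher in liver and 2 in muscle (median -4.29, with bounds -4.27, 11 not above background in muscle). Ugt2b36, a glucuronosyltransferase, differed by -9.32 ± 0.24 (3 of 5 muscle arrays above background). The members higher in muscle were the glutathione transferases Gstm5 (3.15 ± 0.11) and Gstp2 (3.12 ± 0.16). P450, glutathione transferase and glucuronosyltransferase genes lie in families of close copies, and a probe may read more than 1 of them.

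Bile acid synthesis and transport was higher in liver in all 20 members (median -6.17, with bounds -5.73, 11 not above background in muscle). Cyp7a1, the rate-limiting enzyme of bile acid synthesis, was at least 101-fold higher, Baat, which joins bile acids to taurine or glycine, at least 264-fold, and Abcb11, the bile salt export pump, at least 118-fold. The least was Abcb4, the phospholipid exporter of bile, at -0.53 ± 0.16. Sterol synthesis was higher in liver in all 14 members (median -3.39), with Sqle, squalene epoxidase, at -3.83 ± 0.26 and Lss, lanosterol synthase, at -5.09 ± 0.14 (3 of 5 muscle arrays above background). In fatty acid synthesis 13 of 15 were higher in liver and 1 in muscle (median -2.17, with bounds -2.17, 2 not above background in muscle). Fasn, fatty acid synthase, differed by -1.57 ± 0.31 (4 of 5 muscle arrays above background), and Elovl2, an elongase of polyunsaturated fatty acids, was at least 80.6-fold higher in liver. The member higher in muscle was Gpam (0.71 ± 0.22), which starts glycerolipid synthesis. Peroxisomal oxidation was higher in liver in all 12 members (median -4.10, with bounds -4.10), with Uox, the urate oxidase that humans lack, at -8.70 ± 0.26 (1 of 5 muscle arrays above background) and Ehhadh, a bifunctional enzyme of the pathway, at -5.11 ± 0.13.

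Scd1, the desaturase that makes oleic acid, was above background on all 10 arrays, with 15.05, 14.91, 14.66, 14.87 and 14.60 in liver and 14.32, 11.64, 14.18, 13.63 and 13.88 in muscle. The difference was -1.29 ± 0.41 (adjusted p = 0.0108, limma), and muscle array 2 was far below the other muscle arrays. Without it the difference was -0.79, and the methods' paired t-test over all arrays did not call Scd1 (unadjusted p = 0.0652). The methods name that test for comparing genotypes. Here it paired liver and muscle arrays of equal number, which may not share a mouse. Adipoq, the adipocyte hormone adiponectin, chosen after its values were seen, was lowest on the same array, with 10.98, 7.01, 10.70, 10.05 and 10.24 on the muscle arrays and 4.57 to 5.36 on the liver arrays. Of the 3 adipocyte markers tested Adipoq was higher in muscle, Pparg, a nuclear receptor of fat cells, was higher in liver (-1.47 ± 0.11, while its other probe gave 0.30), and Cidec, a lipid droplet protein, was not called (1.16 ± 0.70, 4 of 5 muscle arrays above background). Cidec read 9.05, 5.12, 8.65, 7.98 and 8.08 and Pparg 7.98, 7.62, 7.68, 7.74 and 7.79 on the muscle arrays. Muscle array 2 was also lowest in the plasma proteins. The part of fat tissue in the Scd1 levels of muscle was not tested.

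Transcription factors that define each tissue were measured too. Of 13 myogenic factors 12 were higher in muscle and 0 in liver (median 3.04, with bounds 2.29, 7 not above background in liver, 1.29 to 2.99 under the other scalings). Myf6, the MyoD family member of mature fibres, read 4.59, 4.60, 5.03, 4.49 and 4.75 in liver and 11.99, 11.83, 12.17, 11.88 and 12.04 in muscle, at least 101-fold higher. Mef2c differed by 6.41 ± 0.23, and Myod1 was at least 6.17-fold higher in muscle. The member not called was Mef2d (0.15 ± 0.38, 4 of 5 liver arrays and 4 of 5 muscle arrays above background), a MEF2 factor of most tissues. Of 17 hepatic factors 17 were higher in liver (median -4.58, with bounds -4.04, 9 not above background in muscle, -4.63 to -2.44 under the other scalings). Hnf4a, the nuclear receptor at the centre of the hepatocyte programme, read 12.99, 12.91, 13.50, 12.92 and 13.26 in liver and 5.77, 5.66, 6.34, 5.63 and 5.62 in muscle, a difference of -7.31 ± 0.17. Foxa3 was at least 125-fold higher and Cebpa differed by -2.53 ± 0.35 (3 of 5 muscle arrays above background), whereas Cebpb, which many tissues induce under stress, differed by -0.48 ± 0.12.

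Homeobox genes that mark position along the body axis were read in hindlimb muscle. Of 7 tested, 6 were higher in muscle and 0 in liver (median 2.43, with bounds 1.92, 4 not above background in liver, 0.96 to 2.43 under the other scalings). Hoxc10, a gene of the hindlimb level, read 4.82, 5.53, 5.70, 5.31 and 5.24 in liver and 10.59, 10.27, 11.14, 10.65 and 10.54 in muscle, a difference of 5.32 ± 0.19 (2 of 5 liver arrays above background). Hoxc9 was at least 49.8-fold higher, and Hoxd11 was the member not called (-0.30 ± 0.18, 3 of 5 liver arrays and 2 of 5 muscle arrays above background). Hormones and related genes of liver were higher in liver in all 11 members (median -5.61, with bounds -5.25, 5 not above background in muscle). Igf1, the growth factor that liver releases on growth hormone, differed by -6.00 ± 0.14, and Agt, angiotensinogen, by -4.93 ± 0.11. Hamp, hepcidin, which limits iron uptake, read 14.08, 14.53, 14.40, 14.59 and 14.30 in liver and 8.96, 4.72, 7.68, 6.86 and 6.84 in muscle (-7.37 ± 0.57, 4 of 5 muscle arrays above background), again lowest on muscle array 2 and highest on muscle array 1. Ghr, the growth hormone receptor that both tissues use, differed by -0.75 ± 0.11.

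Clock genes were higher in muscle in 9 of 12 members and in liver in 0 (median 0.91), against 42.0% and 37.8% of all genes tested. Under the other scalings 7 to 9 were higher in muscle and 0 to 1 in liver. Clock itself was not called (-0.18), but was higher in liver by cyclic loess (-0.38) and by quantiles within tissue (-0.30). Its other probe was called higher in liver as well (-0.55). Per2, a clock repressor, gave 0.28 by its brightest probe, while its other probe was called higher in liver (-0.72). Dbp, an output factor of the clock with a strong daily rhythm, read 7.08, 7.03, 8.64, 7.20 and 9.90 in liver and 10.54, 11.33, 10.41, 11.37 and 10.86 in muscle, a difference of 2.93 ± 0.49. Liver arrays 3 and 5 were above the other liver arrays. Nr1d1, a clock repressor chosen after its values were seen, read 6.35, 6.18, 10.24, 6.43 and 9.96 in liver, with the same arrays 3 and 5 high, and 10.05, 10.25, 9.38, 10.21 and 9.83 in muscle. Its tissues overlapped although the mean difference was 2.11 ± 0.76 (adjusted p = 0.022, limma), and the call was lost without liver array 1, 2 or 4 (1.70 to 1.75, adjusted p 0.0574 to 0.0584). Arntl, the activator of the clock, differed by 0.72 ± 0.18, a call that was lost by the methods' paired t-test (unadjusted p = 0.0607) and without normalization. The time of day at which the tissues were taken is not given, and its part in these values was not tested.

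Immediate early genes respond within minutes to handling of tissue. Of 8 tested, 5 were higher in muscle and 2 in liver, against 42.0% and 37.8% of all genes tested. Fos differed by 2.86 ± 0.32 (4 of 5 liver arrays above background) and Junb by -1.86 ± 0.27. Egr1 read 8.93, 8.97, 10.81, 10.20 and 12.83 in liver and 11.44, 9.25, 10.39, 10.57 and 10.55 in muscle. Its highest array was liver array 5, and it was not called (0.09 ± 0.65). Over the list, the mean level of liver array 5 was 8.54 against 7.69 to 7.90 on the other liver arrays.

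The machinery that makes and breaks down proteins was nearer to level. For the counts below, 42.0% of all genes tested were higher in muscle and 37.8% in liver. Of 51 cytosolic ribosomal proteins 17 were higher in muscle and 10 in liver (median 0.08), and the median fell below 0 under 4 of the 5 other scalings (-0.24 to 0.08), with 7 to 18 members higher in muscle and 12 to 22 in liver. The exception was Rpl3l, the muscle paralog of Rpl3, with 4.68, 4.63, 5.30, 4.71 and 5.01 in liver and 14.81, 14.88, 14.78, 14.73 and 14.88 in muscle, at least 723-fold higher. Rpl3 itself read 13.62, 13.69, 13.72, 13.73 and 14.08 in liver and 12.31, 11.88, 12.22, 12.19 and 12.14 in muscle, a difference of -1.62 ± 0.12. The paralogs thus differed in opposite directions, each without overlap. Mitochondrial ribosomal proteins were higher in muscle in 49 of 71 members and in liver in 7 (median 0.63, 0.38 to 0.57 under the other scalings with 28 to 54 higher in muscle), led by Mrps23 (2.41 ± 0.14). Proteasome subunits were higher in muscle in 21 of 34 and in liver in 4 (median 0.33, 0.00 to 0.31 under the other scalings with 7 to 22 higher in muscle). Psmb9, a subunit of the immunoproteasome, which immune cells carry, was higher in liver (-2.59 ± 0.16), and so was Psmb8 (-0.88 ± 0.17), another such subunit.

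Some genes were level between the tissues. Hspa8, a chaperone of all cells, read 14.72, 14.87, 14.74, 14.82 and 14.75 in liver and 14.79, 14.92, 14.87, 14.69 and 14.86 in muscle (0.05 ± 0.09, 95% interval -0.16 to 0.25), and the tissues overlapped. The others chosen for a small difference and a small error were Chchd10, Ddrgk1, Hnrnpc, Psma4 and Tmx4. Their level state rests on the scaling and on the probe chosen. By cyclic loess Ddrgk1 (-0.45), Psma4 (-0.41), Hnrnpc (-0.32) and Tmx4 (-0.21) were called higher in liver, 4 of the 6. Another probe of Hspa8, with a mean level of 11.13, gave 3.02. Hspa8 and Chchd10 averaged 14.80 and 14.84, near the highest level of any gene tested (15.09). Gapdh (14.60) and Atp5b (14.74), which were not called, lay near it too. The normalization caps that end of the scale alike on all arrays, and how far this narrowed differences was not tested.

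Markers of other cell types differed as well, and the genes named here were chosen after their values were seen. Of 8 markers of macrophages and Kupffer cells, 8 were higher in liver (median -2.97, with bounds -2.97, 2 not above background in muscle, -3.03 to -1.93 under the other scalings), with Vsig4, a receptor of resident macrophages, at least 50.4-fold higher. Of 6 markers of sinusoidal endothelium, the fenestrated lining of liver vessels, 6 were higher in liver (median -3.03, with bounds -2.88, 1 not above background in muscle, -3.10 to -1.76 under the other scalings), with Clec4g at -7.54 ± 0.20 (1 of 5 muscle arrays above background). General endothelial markers were higher in muscle in 6 of 7 (median 1.20), with Pecam1, an adhesion protein of vessels, at 2.43 ± 0.27, while its other probe gave -0.10, which was not called. Markers of fibroblasts and tendon were higher in muscle in 8 of 8 (median 2.75), with the collagen Col1a1 at 3.74 ± 0.29 (1 of 5 liver arrays above background). Markers of smooth muscle were higher in muscle in 4 of 4 (median 3.26). Mbp, a myelin protein and the single marker of Schwann cells tested, differed by a fitted 4.90 ± 0.12 by its brightest probe. That probe was above background on 0 of 5 liver arrays, so this size rests in part on background signal. The other probe of Mbp gave 0.49, which was not called. Of 3 markers of bile ducts 1 was higher in liver (Krt7, -0.76 ± 0.17, 1 of 5 muscle arrays above background), 1 was not called and 1, Tspan8, was higher in muscle (6.03 ± 0.14), with 11.97, 11.90, 12.47, 11.89 and 12.19 on the muscle arrays, against its place in that list. Of 3 erythroid markers tested 2 were higher in liver and 1 was not called (median -0.58). Alas2, the first enzyme of heme synthesis in red cell precursors, differed by -5.11 ± 0.18 and the globin Hba-a1 by -0.58 ± 0.18. The marker not called was Slc4a1 (-0.15).

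The contrast was then read in the 10 arrays of Adck2+/- mice, normalized by themselves. Of 7074 genes that were called in WT mice and also measured there, 6388 (90.3%) were called in the same direction and 6 in the opposite one. Over all 9054 genes tested in the Adck2+/- arrays, 7102 were called in either direction. Genes that passed the filter through the same tissue alone in both genotypes had to keep their direction. Of 2314 genes with a difference of at least 4-fold in WT mice, 2314 kept their sign, 2312 were called and 2157 were at least 4-fold again. Ckm differed by 10.18 in these arrays, Hpx by -9.15 and Hnf4a by -7.10. Whether the tissue difference itself changed with genotype was tested as an interaction in all 20 arrays. Of 9841 genes 9 were called (0.0915%), while 1352 had an unadjusted p under 0.05. None of the genes farthest from equality was among them.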

How the data were processed

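RNA of liver and gastrocnemius muscle was hybridized to 1 bead array per sample. The authors deposited a table of raw bead intensity per probe, without normalization between arrays, and the deposited detection p-value of each probe, which per the file headers compares it with its array's background. Probe names and labels are those of Illumina bead arrays although the methods name an Affymetrix chip. The scanner software and build are not given in the sources used here. Groups came from the labels. The 10 WT arrays were background-corrected and quantile-normalized together with neqc of limma 3.58.1 (R 4.3.3, offset 16). Probes with a detection p under 0.05 on at least 5 arrays were kept, the probe with the highest mean stood for a gene, and tissues were compared with lmFit and eBayes, with Benjamini-Hochberg adjustment over 9034 genes and a threshold of 0.05. Gene names are RefSeq symbols matched by the Entrez number of each probe, or the symbol of the probe annotation where no match was found. A further deposited table of intensity values held another probe's signal in 2165 entries, 2048 of them from a probe of the same gene, and served only as an alternative.

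The gene lists, isozyme pairs and named genes were chosen with earlier results of these data known. The text names the 12 genes farthest from equality in each direction, key and extreme members of each list, genes of isozyme pairs, 6 level genes and Adck2. Tpm1, Lrp4, Gstp2, Cyp1b1, Psmb8, Acat1, Cidec, Pparg, Adipoq, Nr1d1 and the markers of other cell types were named after their values were seen. Promoter windows came from RefSeq and were searched with Python 3.11.15 (pandas 2.3.3, numpy 2.4.6, with figures by matplotlib 3.10.9). The scripts were tested on simulated data. Alternatives changed the background correction, scaling, detection filter, probe choice, model, threshold and arrays 1 at a time. The paired t-test that the methods name for genotypes was run as well, with liver and muscle arrays paired by number.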

Additional observations from a re-analysis of the deposited data

Results flagged for a closer look

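In a set of 5 arrays, 1 array stood apart if its gap to the nearest of the others was more than 0.71 of the whole range (Dixon's 95% critical value), which chance gives in about 1 in 20 sets. Over the genes named in the text other than Per2, 33 of 343 sets met this, and over the gene lists 6 of 96. Some of these genes, Adipoq, Cidec, Lrp4 and Mbp among them, were named after their values were seen. A gene's set also needed only 1 array above background. The count over genes therefore cannot be compared with that chance rate. Muscle array 3 accounted for 15 of them and liver array 3 for 8, and no other array for more than 3. All values are normalized log2 signals, with the range of the other 4 arrays of the tissue behind each.

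Muscle array 3 stood apart in the lists of slow fibre isoforms and the Z-disk and in single genes. The mean over the slow fibre isoforms was 10.15 (others 11.31 to 11.71) and that over the Z-disk 11.68 (others 12.27 to 12.49). Below the rest were Atp2a2 at 12.86 (others 13.73 to 13.96), Bdh1 at 6.64 (others 9.41 to 10.04), Csrp3 at 8.77 (others 11.44 to 12.42) and G6pc at 5.26 (others 6.08 to 6.30). Below the rest were Gys1 at 7.04 (others 7.95 to 8.30), Mb at 14.07 (others 14.85 to 14.96), Myl3 at 12.67 (others 14.28 to 14.57) and Oxct1 at 12.71 (others 13.33 to 13.58). Below the rest were Perm1 at 13.13 (others 13.75 to 13.93), Ppm1k at 9.80 (others 10.07 to 10.16) and Sdhb at 13.61 (others 14.00 to 14.15). Above the rest were Ckm at 14.75 (others 14.60 to 14.63) and Hnf4a at 6.34 (others 5.62 to 5.77).

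On liver array 3 the mean over sterol synthesis was 10.38 (others 10.73 to 10.87), over the cytosolic ribosomal proteins 12.30 (others 12.54 to 12.57) and over coagulation and fibrinolysis 12.52 (others 12.62 to 12.66). Below the rest were Fos at 5.00 (others 5.87 to 6.18), Gys2 at 6.11 (others 7.64 to 8.24) and Trf at 14.12 (others 14.85 to 15.05). Above the rest were Ghr at 14.04 (others 13.66 to 13.75) and Uqcrc1 at 13.11 (others 12.61 to 12.75). On liver array 5 the mean over the immediate early genes was 8.54 (others 7.69 to 7.90).

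On single other liver arrays stood Apoe on array 1 at 14.37 (others 14.72 to 14.82), Pygm on array 1 at 5.55 (others 4.54 to 4.75), Oxct1 on array 2 at 5.29 (others 6.09 to 6.41) and Adipoq on array 4 at 5.36 (others 4.57 to 4.75). On single other liver arrays stood also Lrp4 on array 4 at 9.09 (others 8.53 to 8.65) and Rpl3 on array 5 at 14.08 (others 13.62 to 13.73). On single other muscle arrays stood Mbp on array 1 at 9.97 (others 9.39 to 9.54), Mug1 on array 1 at 6.24 (others 4.62 to 4.95), Mug2 on array 1 at 5.84 (others 4.72 to 4.90) and Adipoq on array 2 at 7.01 (others 10.05 to 10.98). On single other muscle arrays stood also Cidec on array 2 at 5.12 (others 7.98 to 9.05), Scd1 on array 2 at 11.64 (others 13.63 to 14.32), Pros1 on array 4 at 7.81 (others 7.35 to 7.44) and Ampd2 on array 5 at 5.41 (others 4.89 to 5.02). On single other muscle arrays stood also Mvd on array 5 at 6.89 (others 6.23 to 6.35).

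The muscle minus liver difference itself differed between Adck2+/- and WT arrays in 9 of 9841 genes, by the interaction term of a limma model over all 20 arrays with Benjamini-Hochberg adjustment. The value in Adck2+/- arrays was lower than in WT arrays for Acot3, a peroxisomal thioesterase, by -1.73 ± 0.23 (adjusted p = 0.00297), Mvd, an enzyme of sterol synthesis, by -1.63 ± 0.28 (adjusted p = 0.0188), Sema7a, a membrane-anchored semaphorin, by -1.20 ± 0.21 (adjusted p = 0.0188), Tal1, a factor of blood and endothelial cells, by -1.05 ± 0.19 (adjusted p = 0.0224) and Opn1mw, listed under the name of a cone opsin, by -1.12 ± 0.22 (adjusted p = 0.0459). It was higher for Usp15, a deubiquitinase, by 1.70 ± 0.25 (adjusted p = 0.00524), Vcpip1, another deubiquitinase, by 1.37 ± 0.22 (adjusted p = 0.0167), Jph1, which joins the reticulum to the T-tubule, by 1.06 ± 0.18 (adjusted p = 0.0188) and Gprin3, a G protein regulator, by 0.92 ± 0.18 (adjusted p = 0.0459). Acot3 averaged 6.93 in WT and 8.64 in Adck2+/- liver, and 4.59 and 4.57 in muscle. Usp15 averaged 4.83 in WT and 4.72 in Adck2+/- liver, and 5.79 and 7.38 in muscle. Mvd averaged 8.81 in WT and 10.03 in Adck2+/- liver, and 6.50 and 6.09 in muscle. Sema7a averaged 4.64 in WT and 4.72 in Adck2+/- liver, and 8.19 and 7.07 in muscle. Jph1 averaged 4.82 in WT and 4.62 in Adck2+/- liver, and 10.32 and 11.19 in muscle. In Acot3, Mvd, Vcpip1 and Gprin3 the larger part of the difference was between genotypes in liver, and in Usp15, Jph1, Sema7a and Opn1mw in muscle. This count moved from 9 to 158 without Adck2+/- muscle array 5.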

How the results depend on the processing

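Muscle and liver counts at least 4-fold apart fell from 1126 and 1191 to 607 and 765 without background correction, 567 and 567 over probes above background on all 10 arrays, which tests fewer genes, and 434 and 516 on the deposited value table. The cause of the first and the last was not tested. Counts of called genes stayed within 1.5 times under every alternative, with 3458 and 3716 by cyclic loess, 3454 and 3096 at an adjusted p under 0.01, and 3690 and 3302 by the methods' t-test (3598 and 3210 after Benjamini-Hochberg). The median difference over all genes was 0.07 and -0.06 by cyclic loess. Leaving out each array in turn gave 3698 to 3934 genes higher in muscle, 3336 to 3466 in liver, and 1118 to 1138 and 1175 to 1214 at 4-fold. The genes whose tissue difference differed by genotype went from 9 to 24 without background correction, 4 by median scaling, 14 without the filter and 2 at 0.01. They ranged from 4 to 158 when single arrays were left out: 158 without Adck2+/- muscle 5, 37 without WT muscle 2, 14 without WT liver 3, 5 without Adck2+/- liver 3 or WT muscle 4, and 4 without WT liver 2. Deviations of liver and muscle samples of the same number correlated at -0.04 to 0.15. For numbers 1 and 3 this was above the best correlation with another number (0.07 against 0.03, and 0.15 against -0.02). For numbers 2, 4 and 5 it was below it. Whether samples share mice cannot be read from these values. With the number as a replicate block the counts were 3803, 3422, 1126 and 1191. Over 198 named genes 5217 of 5313 alternative values kept direction and call, 38 lost the call, 39 gained it and 19 changed sign, and of 1563 alternative medians of 56 lists 280 moved beyond the replicate spread. Tpm3 read 4.25 without background correction, 4.56 as a mean of probes, 2.23 in the value table, 6.13, 5.93 and 6.57 by its other probes and 6.47 to 6.68 without single liver arrays (-0.56 without liver array 3). By cyclic loess and by quantiles within tissue Hnrnpc read -0.32 and -0.22, and Psma4 -0.41 and -0.31. Tmx4 read 0.33 as a mean of probes and 0.67 by its other probe, Slc16a3 -0.35, Pecam1 -0.10 and Pparg 0.30 by theirs. Signals near background bound the folds of genes read in 1 tissue only.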
